A study of Mus musculus with 12 samples.

Results

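Gene expression was compared between islets that lack SHP and wild-type islets, in mice kept on chow. The comparison used 6 of the 12 arrays of the series, 3 labelled SHPKO and 3 labelled WT. The SHPKO arrays came from male SHP-/- mice on the C57Bl/6Hsd background, aged 10 months and fed chow for 6 months from the age of 4 months, and the WT arrays from male wild-type C57Bl/6Hsd mice of the same age on the same feeding. Islets were freed from the pancreas by perfusion with collagenase. Equal amounts of total RNA from 5 to 9 mice were pooled per group, and each group was run in triplicate on Illumina beadchips. The 3 arrays of a group are therefore read as repeats of a pool, so that the p-values below measure the spread between arrays and not the spread between mice. A gene entered the comparison where a probe was detected, at a detection p-value below 0.01, on all 3 arrays of at least 1 of the chow groups. This held for 8564 of the 19057 genes with a named probe. Of these, 7986 passed in both groups, 413 in SHPKO only and 165 in WT only.

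SHP (small heterodimer partner), the product of Nr0b2, is an orphan nuclear receptor without a DNA-binding domain. It binds other nuclear receptors and represses the transcription they drive, and is best known for limiting bile acid synthesis in the liver. Islets are the endocrine clusters of the pancreas, in which beta, alpha, delta and PP cells secrete insulin, glucagon, somatostatin and pancreatic polypeptide, and they are surrounded by acinar cells, which secrete digestive enzymes. Isolated islets carry acinar, stromal, vascular and blood cells with them.

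The defining transcripts of islets were abundant. Ins2, Gcg, Sst and Ppy had means between 13.13 and 14.82 on the log2 scale in both groups, near the top of the range. Nr0b2 was not detected on any chow array, at 4.40 ± 0.04 in SHPKO and 4.49 ± 0.06 in WT (log2, mean ± SD, n = 3), so its probe does not check the genotype labels. Raw median signals were 85.4 to 88 on the SHPKO arrays and 80.7 to 82.6 on the WT arrays, with 13821 to 16101 detected probes. Pairs of arrays correlated at 0.984 to 0.995 within the chow groups and at 0.967 to 0.979 between them.

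SHP loss on chow went with a large fall of acinar transcripts and with changes of 1.5-fold or more in 146 other genes. In all, 187 of 8564 genes (2.18%) were called (limma, adjusted p below 0.05 with a change of 1.5-fold or more), with 80 higher (0.934%) and 107 lower (1.25%). With the acinar transcripts set aside, 146 of 8522 genes (1.71%) were called, 79 higher (0.927%) and 67 lower (0.786%), and 44 of the 146 differed by at least 2-fold. All 146 genes had SHPKO and WT arrays that did not overlap, as had 17% of all genes outside the acinar block. Without SHPKO replicate 1, 52 genes outside the block were higher, and without background correction 35 were higher and 20 lower. The median difference over all genes was 0.01 on the log2 scale. Of the 79 higher genes, 27 passed the detection filter only through the SHPKO arrays, and of the 67 lower genes, 30 passed only through the WT arrays, so their direction was partly fixed by the filter. Among the former were Rgs2, Npas4, Trib1, Gdf10, Ghrl, Mgst1, Kcnq1ot1 and Pdpn, described below. Ctsk, Igf1, Fgf21, Edem1 and Ifi27l2a were among the latter. The plot of difference against level shows both sets of changes.

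**Figure D1:**
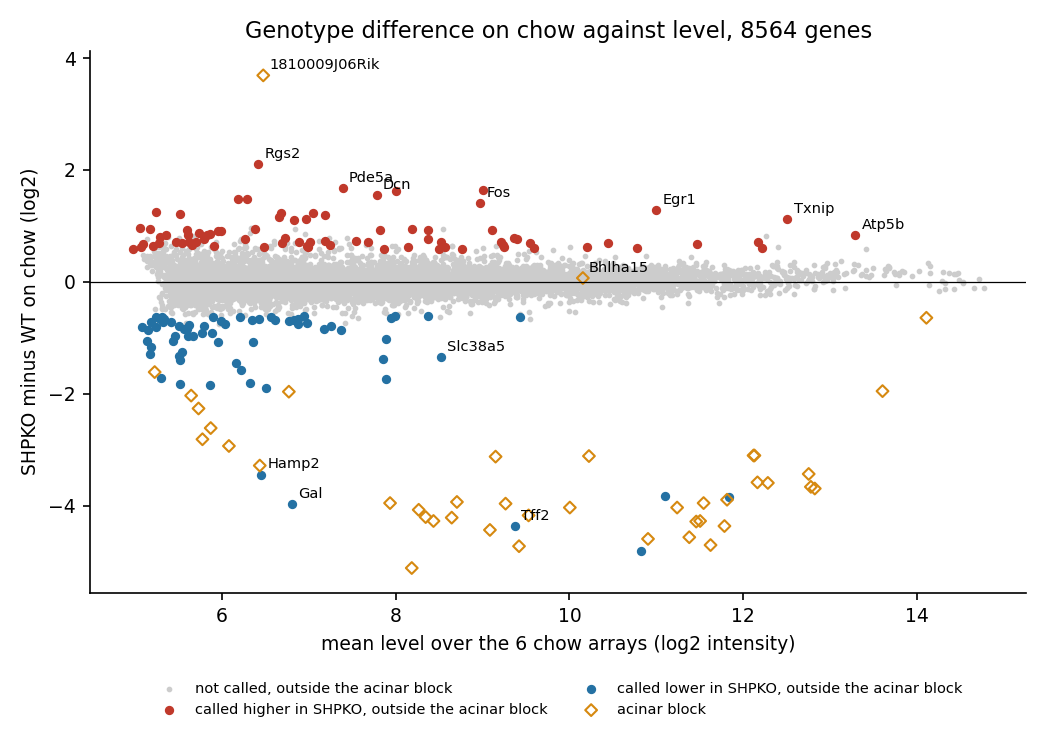
Difference between SHPKO and WT on chow (log2, y axis) against the mean level over the 6 chow arrays (log2 intensity, x axis) for 8564 genes. Red and blue points are genes called higher and lower outside the acinar block, diamonds are acinar block genes and grey points the rest. Most diamonds lie below -3, while 1810009J06Rik lies at 3.69, Bhlha15 at 0.07 and Amy2a5 at -0.64. Each gene is drawn by its brightest kept probe.

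The acinar block holds digestive enzymes, the Reg family, tissue kallikreins and acinar secretory proteins and regulators. It names 79 genes, of which 63 were on the array and 42 were tested. Of the 42, 41 were called (97.6%) and 40 were lower in SHPKO islets (95.2%), with a median of -3.79. The block made up 0.45% to 0.5% of the background-subtracted signal on the SHPKO arrays and 3.97% to 4.19% on the WT arrays. In RNA from whole islets, fewer acinar cells and less acinar RNA per cell cannot be told apart. The largest fall was that of Prss3, a trypsinogen. Prss3 read 6.05, 5.51 and 5.32 on the SHPKO arrays, against 10.86, 10.69 and 10.66 on the WT arrays, a difference of -5.11 ± 0.16 (log2 ± SE, adjusted p = 1.1e-10). Zg16, a zymogen granule protein, stood at 9.61 ± 0.42 in SHPKO and 13.96 ± 0.14 in WT and fell by 4.36 (adjusted p = 1.3e-09). The fall was uneven within the block. Amy2a5, a pancreatic amylase, stood at 13.79 ± 0.03 in SHPKO and 14.43 ± 0.06 in WT by its brightest probe (a difference of -0.64), in a range where bright probes compress. All 3 kept probes of Amy2a5 fell, and its difference ran from -3.5 to -0.61 over the other settings. The small fall of Amy2a5 thus depends on the probe and setting used. Cela2a, an elastase, was as bright as Amy2a5 in WT, at 12.63 ± 0.20 in SHPKO and 14.58 ± 0.04 in WT (a difference of -1.95), while its paralog Cela3b differed by -4.70. Ptf1a and Rbpjl, transcription factors of acinar cells, were undetected on the SHPKO arrays and called lower. Bhlha15, a transcription factor of secretory cells, did not pass the test. It read 10.23, 10.19 and 10.14 in SHPKO, against 10.16, 10.23 and 9.96 in WT, a difference of 0.07 ± 0.09 (adjusted p = 0.79), and only 1 of its 3 kept probes had a positive difference. Trypsinogens and kallikreins are near-identical paralogs whose probes can share signal.

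A single block gene was higher. 1810009J06Rik, which lies in the trypsinogen cluster on chromosome 6, read 8.28, 8.31 and 8.37 on the SHPKO arrays, against 4.56, 4.33 and 5.01 on the WT arrays. It was undetected in WT and at least 7.9-fold higher in SHPKO (adjusted p = 5.3e-10). In the same cluster Gm5771, Gm5409 and Gm10334, which the block's definition did not cover, were all lower in SHPKO. They are named here after their values were seen. Gm5771 stood at 8.42 ± 0.19 in SHPKO and 13.22 ± 0.05 in WT, a difference of -4.81. Gm5409, listed as a pseudogene, differed by -3.85 and Gm10334 by -3.83. Without these 3 genes, 143 genes outside the block were called.

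Other secreted products were among the largest falls outside the block. Tff2, a trefoil peptide of mucous epithelia, read 7.40, 7.44 and 6.74 in SHPKO, against 11.54, 11.60 and 11.53 in WT (-4.36 ± 0.17, adjusted p = 1.2e-09). Hamp2, a hepcidin, was undetected in SHPKO at 4.77, 4.67 and 4.75, against 8.36, 8.30 and 7.86 in WT, and was at least 7.74-fold lower. Both genes separated the groups by more than any spread between arrays. The duct and mucous cell list had 2 of 11 members lower (1.25% of all genes were), Tff2 and Muc1, and 0 higher, with a median of 0.07. Muc1, a membrane mucin, differed by -0.78 ± 0.09 (adjusted p = 0.00018), and its call was lost without background correction. Of the duct markers, Krt19 and Cftr were undetected in both groups, and Krt7 stood at 9.73 ± 0.09 in SHPKO and 9.65 ± 0.23 in WT. Sox9, a transcription factor of ducts, read 6.61, 6.70 and 6.13 in SHPKO, against 5.69, 6.03 and 5.97 in WT, without overlap, and its difference of 0.58 ± 0.17 did not pass (adjusted p = 0.11). Further falls included Gamt, the last enzyme of creatine synthesis, by 1.81 (adjusted p = 2.9e-06), Cldn10, a tight junction claudin, which fell by 1.57, and Cabp2, a calcium-binding protein, which was undetected in SHPKO and at least 2.31-fold lower. These falls ran in the same direction as that of the acinar transcripts. The part of acinar cells in these falls was not tested.

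Few genes of the core endocrine programme were called. Ins2, an insulin gene, read 14.57, 14.61 and 14.43 in SHPKO, against 14.45, 14.54 and 14.61 in WT, and the arrays overlapped (0.00 ± 0.08, adjusted p = 0.99). Glucagon (Gcg) differed by -0.10 ± 0.12 (adjusted p = 0.78) and somatostatin (Sst) by 0.17 ± 0.09 (adjusted p = 0.44). Their signals lie at the bright end, where differences are compressed. None of 16 beta cell transcription factors was called by limma, 1 had an unadjusted p below 0.05 and their median was 0.01. Pdx1, which maintains beta cell identity, stood at 9.96 ± 0.11 in SHPKO and 9.98 ± 0.24 in WT. Likewise 0 of 23 granule and prohormone processing genes were called (2 at an unadjusted p below 0.05), with a median of 0.10. Over all genes, 14.2% had an unadjusted p below 0.05. Of 17 glucose sensing and incretin receptor genes, 1 was lower (1.25% of all genes were), 0 were higher and 5 had an unadjusted p below 0.05, with a median of 0.06. That gene was Gpr119, a lipid receptor that promotes insulin secretion, at 5.55, 5.69 and 5.73 in SHPKO, against 6.37, 6.40 and 6.50 in WT (-0.76 ± 0.14, adjusted p = 0.0086). The Gpr119 call was lost without background correction and without SHPKO replicate 1.

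Of 5 islet neuropeptides tested, 1 was higher and 1 lower, and of 7 hormones 1 was higher and 0 lower, with 3 of the 7 at an unadjusted p below 0.05. Over all genes, 0.934% were higher and 1.25% lower. The neuropeptide that fell was galanin (Gal), which inhibits insulin release. Gal read 4.98, 4.80 and 4.68 in SHPKO, where it was undetected, against 8.74, 8.79 and 8.83 in WT. It was at least 11.9-fold lower in SHPKO (adjusted p = 2.3e-11), with an SD of 0.04 in WT. Vasoactive intestinal peptide (Vip), a neuropeptide that promotes insulin release, read 6.94, 6.83 and 6.79 in SHPKO, against 5.72, 5.81 and 6.18 in WT (0.95 ± 0.13, adjusted p = 0.001). The Vip call was lost without background correction. Ghrelin (Ghrl), the hormone of epsilon cells, read 6.58, 6.44 and 5.86 in SHPKO, against 5.09, 5.58 and 5.64 in WT (0.86 ± 0.19, adjusted p = 0.024), a call lost in 6 of 15 other settings, among them those without SHPKO replicate 1 or 2 or WT replicate 1. Pancreatic polypeptide (Ppy) read 13.75, 13.80 and 13.58 in SHPKO, against 13.12, 12.98 and 13.31 in WT. Its difference of 0.58 ± 0.10 had an adjusted p of 0.0049 but lay just under the minimum fold, so it was not called. Slc38a5, a glutamine transporter, fell. It read 7.94, 8.0 and 7.62 in SHPKO, against 9.11, 9.17 and 9.29 in WT (-1.34 ± 0.11, adjusted p = 2.6e-06). Sox4, a transcription factor of endocrine development, rose, with 8.89, 8.91 and 8.64 in SHPKO, against 7.27, 7.23 and 7.09 in WT (1.62 ± 0.14, adjusted p = 7.3e-06). Sox4 was the 1 of 9 endocrine progenitor genes that was called, and Mgst1, at 0.71, the 1 of 13 genes kept low in normal beta cells.

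Several immediate early genes rose. This class is switched on quickly by stimuli such as depolarisation or a rise in cyclic AMP. Of 48 listed, 29 were tested, 7 were higher (0.934% of all genes were), 0 were lower and 22 were not called, with a median of 0.27. Of the 29, 4 passed the filter only through SHPKO, Rgs2 and Npas4 among them, and 1 only through WT. The 250 bases before the start of 5 of the 7 are shown because cyclic AMP and depolarisation act on several of these genes through a cyclic AMP response element (CRE). They come from RefSeq, build GRCm38.p6, and are written along the gene's strand. Capitals mark the CRE core TGACG on either strand (as TGACG or CGTCA) in the first 4 and the E-box CACGTG in Gadd45b.
Fos, chr12:85473640-85473889, plus strand: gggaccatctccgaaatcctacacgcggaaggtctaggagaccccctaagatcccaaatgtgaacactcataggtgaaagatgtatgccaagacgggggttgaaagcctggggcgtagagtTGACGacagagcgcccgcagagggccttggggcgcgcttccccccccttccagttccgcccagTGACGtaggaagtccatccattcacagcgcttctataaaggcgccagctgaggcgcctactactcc
Junb, chr8:84978749-84978998, minus strand: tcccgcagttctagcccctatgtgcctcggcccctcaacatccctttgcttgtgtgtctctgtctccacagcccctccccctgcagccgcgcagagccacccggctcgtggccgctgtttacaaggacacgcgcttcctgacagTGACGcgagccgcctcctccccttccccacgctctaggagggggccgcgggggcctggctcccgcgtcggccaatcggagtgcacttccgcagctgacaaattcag
Npas4, chr19:4989972-4990221, minus strand: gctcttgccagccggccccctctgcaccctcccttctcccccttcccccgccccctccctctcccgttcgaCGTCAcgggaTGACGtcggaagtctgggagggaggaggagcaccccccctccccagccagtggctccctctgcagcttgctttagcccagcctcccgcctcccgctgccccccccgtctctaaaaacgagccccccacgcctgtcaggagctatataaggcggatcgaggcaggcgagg
Rgs2, chr1:144004150-144004399, minus strand: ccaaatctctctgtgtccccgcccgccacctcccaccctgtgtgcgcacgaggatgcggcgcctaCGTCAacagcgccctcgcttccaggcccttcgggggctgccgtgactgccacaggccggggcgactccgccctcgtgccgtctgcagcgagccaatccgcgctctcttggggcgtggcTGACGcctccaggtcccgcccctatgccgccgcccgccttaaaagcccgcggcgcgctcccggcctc
Gadd45b, chr10:80929841-80930090, plus strand: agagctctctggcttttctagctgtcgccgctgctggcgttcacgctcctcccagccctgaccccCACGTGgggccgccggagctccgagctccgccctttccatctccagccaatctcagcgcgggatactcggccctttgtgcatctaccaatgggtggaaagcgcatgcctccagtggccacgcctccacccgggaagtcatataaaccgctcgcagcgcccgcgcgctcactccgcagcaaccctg

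Rgs2, a regulator of G protein signalling, had the largest rise. It read 7.40, 7.61 and 7.39 in SHPKO, against 5.22, 5.66 and 5.20 in WT (2.11 ± 0.14, adjusted p = 3.8e-07). This Rgs2 probe passed the filter only through SHPKO, so its direction was partly fixed by the filter. Fos, a subunit of the AP-1 transcription factor, read 9.57, 9.58 and 9.89 in SHPKO, against 8.19, 8.45 and 8.15 in WT (1.41 ± 0.12, adjusted p = 4.5e-06). Egr1, a zinc finger transcription factor, read 11.60, 11.61 and 11.72 in SHPKO, against 10.22, 10.40 and 10.47 in WT (1.28 ± 0.10, adjusted p = 3.1e-06). Neither gene's arrays overlapped between the groups. Junb, another AP-1 subunit, read 8.84, 8.94 and 8.72 in SHPKO, against 7.89, 7.85 and 7.98 in WT (0.92 ± 0.12, adjusted p = 0.00052). Gadd45b, a stress-inducible growth regulator, read 7.34, 7.55 and 7.26 in SHPKO, against 6.24, 6.14 and 6.47 in WT (1.10 ± 0.14, adjusted p = 5e-04). Npas4, a transcription factor induced by depolarisation, was undetected in WT. It read 6.00, 6.31 and 6.06 in SHPKO, against 4.78, 4.76 and 5.18 in WT, and was at least 1.73-fold higher in SHPKO (adjusted p = 0.0019), a call lost without background correction. Ccn2, a matricellular growth factor, rose by 0.63 ± 0.09 (adjusted p = 0.0016), a call lost without background correction or WT replicate 2. Several other members had low adjusted p-values but lay under the minimum fold, among them Zfp36 at 0.57, Dusp1 at 0.55 and Jun at 0.45. Nr4a2 stood at -0.24 and Crem at -0.02, and neither passed. The plot of 12 genes by array shows Rgs2, Fos and Egr1 beside other called genes.

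**Figure D2:**
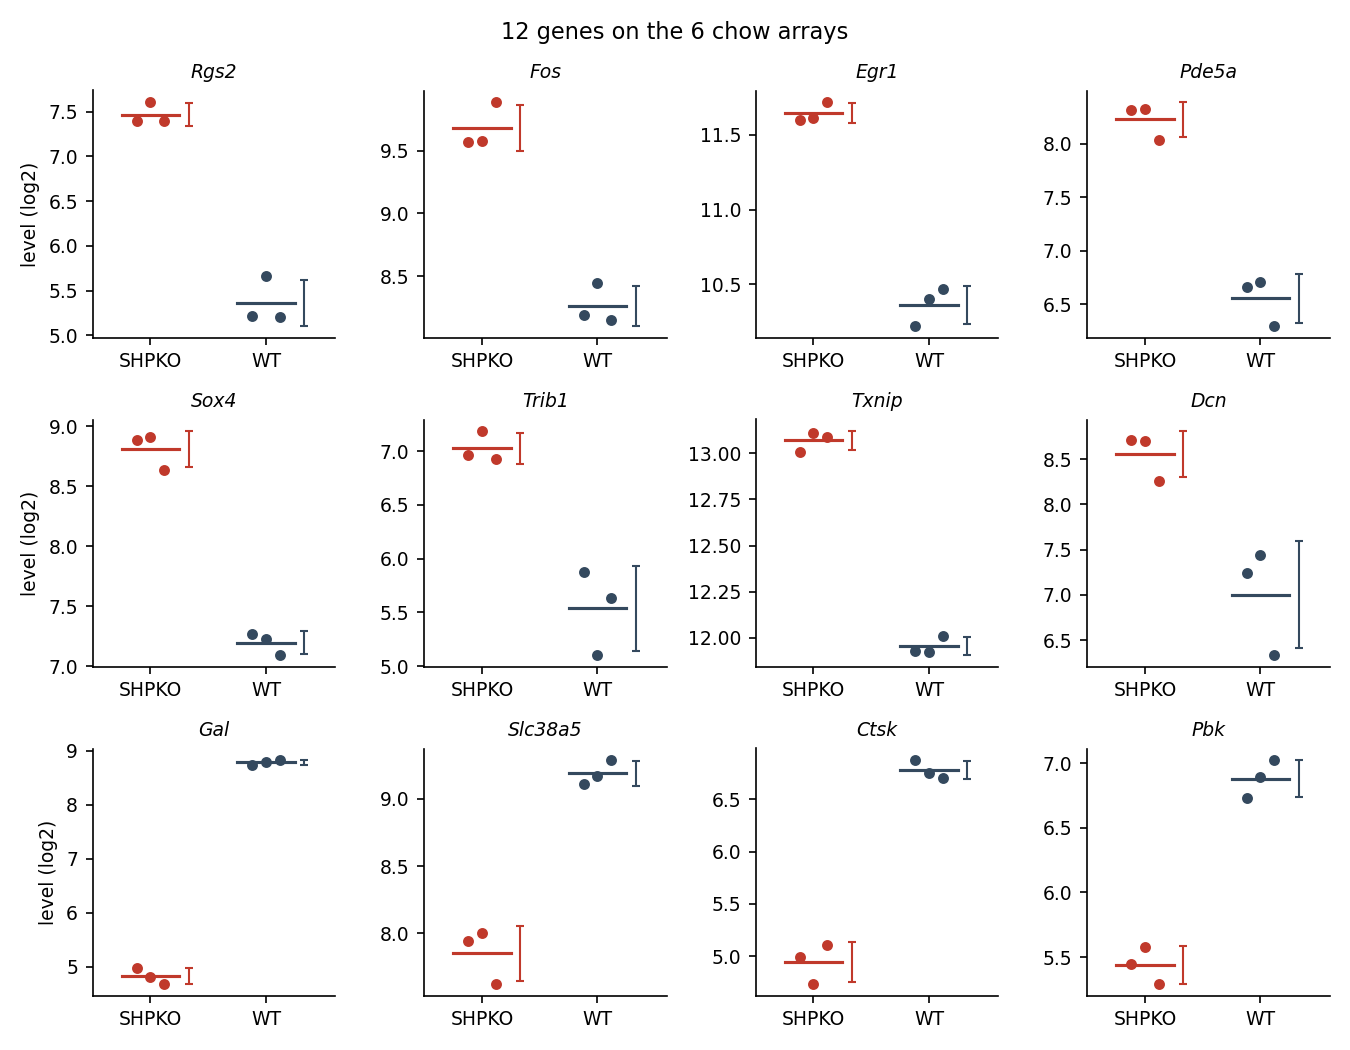
Log2 level (y axis) on each chow array, SHPKO in red at the left and WT in dark grey at the right, for 12 genes called on chow. Points are arrays, horizontal lines group means and bars 1 SD (n = 3). None of the 146 genes called outside the acinar block had overlapping groups, so the lack of overlap here follows from the choice of genes. The difference ranges from 1.12 for Txnip to 2.11 for Rgs2 among the genes that rose. Gal was undetected in SHPKO and at least 11.9-fold lower.

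The CRE core was present in 4 of the 5 promoters that the RefSeq table held among these 7 genes. It was searched on both strands from 250 bases before to 50 bases after each start, and occurred in 39.7% of the promoters of genes called higher outside the block (25 of 63), 24.5% of those called lower (13 of 53) and 37.0% of all tested genes with a promoter (2597 of 7010). The full CRE TGACGTCA, which contains that core, occurred in 3.17% of the higher genes, 1.89% of the lower genes and 3.95% of all tested genes. The AP-1 site TGAGTCA or TGACTCA occurred in 3.17%, 9.43% and 4.34%, and the E-box CACGTG in 11.1%, 7.55% and 12.4%, for the same sets of genes in the same order. The site of NR5A receptors (TCAAGGTCA), which SHP is known to repress, was found in 0 promoters of either called set and in 0.342% of all. A match describes the letters in this window and shows no binding.

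Other signalling genes changed singly, with most members of their lists not called. Over all genes, 0.934% were higher and 1.25% lower. Pde5a, the phosphodiesterase that degrades cyclic GMP, rose. It read 8.32, 8.33 and 8.04 in SHPKO, against 6.66, 6.71 and 6.29 in WT (1.67 ± 0.16, adjusted p = 2.2e-05). It was the 1 of 19 cyclic nucleotide signalling genes and the 1 of 13 pericyte and smooth muscle genes called. Trib1, a pseudokinase that directs protein degradation, read 6.96, 7.19 and 6.93 in SHPKO, against 5.88, 5.10 and 5.63 in WT (1.49 ± 0.17, adjusted p = 0.00017). This Trib1 probe passed the filter only through SHPKO. The other kept Trib1 probe differed by 0.12 ± 0.21 (limma over all kept probes, adjusted p = 0.86). Gdf10, a secreted ligand of the TGF-beta superfamily, read 7.19, 6.96 and 6.63 in SHPKO, against 5.40, 5.26 and 5.69 in WT (1.48 ± 0.17, adjusted p = 0.00017). It was the 1 of 25 genes of the TGF-beta, BMP and activin list that was called, and it too passed the filter only through SHPKO. Cacnb2, a voltage-gated calcium channel subunit, rose by 1.23 ± 0.22 (adjusted p = 0.0069), but its call was lost when its probes were averaged. The other kept Cacnb2 probe had the opposite sign, at -0.31 ± 0.18. Igf1, an insulin-like growth factor, fell by 0.96 (adjusted p = 0.00098), with 5.30, 5.18 and 4.90 in SHPKO, against 5.97, 6.20 and 6.09 in WT. Fgf21, a hormone of fasting and of the exocrine pancreas, fell by 0.96 too (adjusted p = 0.02), a call lost without background correction, SHPKO replicate 2 or WT replicate 2 or 3. The call of Igf1 was lost without background correction. Igf1 and Fgf21 passed the filter only through WT, and were detected on 1 and 2 of the 3 SHPKO arrays. Errfi1, a feedback inhibitor of the EGF receptor that was chosen after its values were seen, stood at 9.76 ± 0.03 in SHPKO and 8.97 ± 0.12 in WT and rose by 0.78 ± 0.09 (adjusted p = 0.00017). None of 13 Wnt genes (1 at an unadjusted p below 0.05) and none of 13 Notch genes (4) was called by limma, with medians of -0.06 and -0.04.

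Among genes that respond to nutrients and stress, Txnip had the clearest difference. Txnip inhibits thioredoxin and is strongly induced by glucose in beta cells. It read 13.01, 13.11 and 13.09 in SHPKO, against 11.93, 11.92 and 12.01 in WT (1.12 ± 0.08, adjusted p = 4.7e-07), with an SD of 0.05 in each group. Its relative Arrdc4 did not follow, at 0.03 (adjusted p = 0.91). Depp1, a target of FoxO factors, rose by 0.92 ± 0.14 (adjusted p = 0.0016), with 9.68, 9.56 and 9.47 in SHPKO, against 8.81, 8.74 and 8.39 in WT. Of 32 thioredoxin, glutathione and antioxidant genes, 3 were higher (0.934% of all genes were), 0 were lower and 10 had an unadjusted p below 0.05, with a median of 0.00. The other two were glutathione transferases, Gsta3 at 0.91 ± 0.16 (adjusted p = 0.0047) and Mgst1 at 0.71 ± 0.14 (adjusted p = 0.01), both lost without background correction, and Mgst1 also without WT replicate 3. Among 34 genes of ER stress and the unfolded protein response, 1 was lower (1.25% of all genes were) and 0 higher, with a median of 0.01. It was Edem1, a factor of ER-associated degradation, at -0.84 ± 0.14 (adjusted p = 0.0029), also lost without background correction. Of 39 oxidative phosphorylation subunits, 1 was higher (0.934% of all genes were) and 0 lower, with a median of -0.08. That subunit was Atp5b, the beta subunit of ATP synthase, which read 13.66, 13.79 and 13.68 in SHPKO, against 12.81, 12.84 and 12.97 in WT (0.83 ± 0.08, adjusted p = 3.5e-05). No other ATP synthase subunit tested was called, Atp5a1 standing at -0.10, Atp5c1 at 0.09 and Atp5o at 0.01, with adjusted p of 0.82 or above.

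Clock and output genes had 2 of 15 members higher (0.934% of all genes were) and 0 lower, and 13 of the 15 had a positive difference (median 0.27). Cry2, a core repressor of the clock, read 8.48, 8.48 and 9.01 in SHPKO, against 7.92, 7.60 and 7.62 in WT (0.94 ± 0.16, adjusted p = 0.0051). Ciart, a clock-controlled repressor, rose by 0.70 ± 0.14 (adjusted p = 0.016), a call lost in 6 other settings, among them those without SHPKO replicate 1 or 2 or WT replicate 2 or 3. Per1 and Per2, partners of Cry2, stood at 0.49 and 0.40, Nr1d1 at 0.39 and Dbp at 0.34, and none of these passed. Arntl and Clock, the activating arm, stood at -0.03 and 0.00. The sources used here give no time of day for islet isolation.

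Some stromal and matrix transcripts rose and others fell. Dcn, a matrix proteoglycan of fibroblasts, read 8.71, 8.70 and 8.26 in SHPKO, against 7.24, 7.44 and 6.33 in WT (1.55 ± 0.24, adjusted p = 0.0023). WT replicate 3 was the lowest, and without it the difference was 1.22 (adjusted p = 0.0016). Of 22 fibroblast, stellate cell and matrix genes tested, 1 was higher (0.934% of all genes were), 0 were lower and 21 were not called. Of the 22, 16 had a positive difference and 12 an unadjusted p below 0.05, with a median of 0.24. Sparc, a matrix glycoprotein, stood at 0.39 with an adjusted p of 0.027, under the minimum fold, and at -0.01 when its probes were averaged, and Bgn, a relative of Dcn, at 0.44 (adjusted p = 0.074). Col1a1, Col3a1, Lum and Pdgfra, defining markers of fibroblasts, were undetected on all 6 chow arrays. Pdpn, a membrane glycoprotein of lymphatic and stromal cells whose gene lies on chromosome 4, as Nr0b2 does, was undetected in WT. It read 6.09, 5.62 and 5.88 in SHPKO, against 4.74, 4.48 and 4.63 in WT, and was at least 1.44-fold higher (adjusted p = 0.00054), a call lost without background correction. Prelp, another matrix proteoglycan, which was chosen after its values were seen, rose by 0.91 ± 0.18 (adjusted p = 0.012), a call lost without background correction, SHPKO replicate 1 or 2 or WT replicate 1. Pde5a, the called member of the pericyte and smooth muscle list, is given above. Col16a1 and Ctsk were lower. Col16a1, a fibril-associated collagen, read 5.59, 5.53 and 5.56 in SHPKO, against 7.33, 7.42 and 7.62 in WT (-1.90 ± 0.19, adjusted p = 3.6e-05). Ctsk, a collagen-degrading cathepsin, read 4.99, 4.73 and 5.11 in SHPKO, against 6.88, 6.75 and 6.71 in WT (-1.84 ± 0.13, adjusted p = 9e-07). Ctsk passed the filter only through WT and was detected on 1 of the 3 SHPKO arrays. Its direction was thus partly fixed by the filter, and the size of its fall is uncertain. No endothelial gene was called of 21 tested by limma (4 at an unadjusted p below 0.05), with a median of 0.11. Egfl7, a secreted endothelial factor, stood at 0.47 (adjusted p = 0.0092), under the minimum fold, and Pecam1 at 7.73 ± 0.42 in SHPKO and 7.74 ± 0.07 in WT.

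Some genes of S phase and mitosis fell. Of 46 listed, 19 were tested, 5 were lower (1.25% of all genes were), 0 were higher and 14 were not called. The median was -0.45, or -0.42 with undetected members at their bound, and 1 of the 19 had a positive difference. Of the 19, 4 passed the filter only through WT and 0 only through SHPKO. Pbk, a mitotic kinase, read 5.45, 5.58 and 5.29 in SHPKO, against 6.73, 6.89 and 7.02 in WT (-1.44 ± 0.21, adjusted p = 0.0011). Cdca3, which promotes mitotic entry, read 5.59, 5.36 and 5.27 in SHPKO, against 6.25, 6.64 and 6.57 in WT (-1.08 ± 0.15, adjusted p = 0.0011). Both lay close to the detection limit in SHPKO. Cenpa, the centromeric histone, read 6.44, 6.65 and 6.40 in SHPKO, against 7.26, 7.14 and 7.35 in WT (-0.76 ± 0.11, adjusted p = 0.0017). Mcm5, a subunit of the replicative helicase, read 6.50, 6.49 and 6.46 in SHPKO, against 7.30, 7.10 and 7.10 in WT (-0.68 ± 0.10, adjusted p = 0.0016). The calls of Cdca3, Cenpa and Mcm5 were lost without background correction, which shrinks differences of dim probes, whereas Pbk was called in each setting run. Aurka, a mitotic kinase, was undetected in SHPKO and at least 1.34-fold lower, a call lost without SHPKO replicate 1 or 2, WT replicate 2 or 3 or background correction. Uhrf1, which maintains DNA methylation during replication and was not in the list, was also undetected in SHPKO and at least 1.93-fold lower (adjusted p = 5.3e-05). The Uhrf1 call was lost without background correction. The cyclins Ccnd1 and Ccnd3 stood at -0.09 and -0.03, and Ccnd2, at 0.62 ± 0.27, was the member with a positive difference (adjusted p = 0.32).

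Few immune transcripts were called. Of 30 interferon response genes, 1 was lower (1.25% of all genes were), 0 were higher and 10 had an unadjusted p below 0.05. A positive difference was seen in 9 of the 30 (median -0.11). The called member was Ifit3, an antiviral effector, at 6.69, 6.84 and 6.73 in SHPKO, against 7.75, 7.61 and 7.43 in WT (-0.84 ± 0.10, adjusted p = 0.00023), a call lost without background correction. Rsad2 stood at -0.51 (adjusted p = 0.0076) and Oasl2 at -0.56 (adjusted p = 0.032), under the minimum fold. Ifi27l2a, an interferon-inducible gene that was not in the list and was chosen after its values were seen, fell by 0.84 (adjusted p = 0.0026), a call lost without background correction. No macrophage and antigen presentation gene was called of 20 tested (3 at an unadjusted p below 0.05, limma), with a median of -0.13. The summed linear level of that list was 5930 to 6130 on the SHPKO arrays and 5750 to 6280 on the WT arrays. Cd52, a surface glycoprotein of lymphocytes, fell by 0.85 (adjusted p = 0.018), with 7.19, 7.17 and 6.48 in SHPKO, against 7.91, 7.84 and 7.63 in WT. The lymphocyte defining markers Cd79b, Cd3e and Ms4a1 were undetected in both groups. The Cd52 call was lost without WT replicate 1 or 2 and in the fit of the chow arrays alone. Neither erythroid genes (0 of 4, 1 at an unadjusted p below 0.05) nor Schwann and neural genes (0 of 4, 2) had a called member in limma.

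The plot of gene lists gives the tested members of each list outside the block. SHP, the nuclear receptors it partners with and genes of bile acid metabolism had 0 of 20 members called by limma (4 at an unadjusted p below 0.05), with a median of 0.06. Nr1h4, the bile acid receptor FXR, stood at -0.16 (adjusted p = 0.50), and Hnf4a, a partner that SHP represses, at -0.08 (adjusted p = 0.78). The largest positive difference was that of the coactivator Ppargc1a, with 6.23, 5.71 and 6.33 in SHPKO, against 5.19, 5.68 and 4.94 in WT (0.82 ± 0.21, adjusted p = 0.055). Its lowest SHPKO array barely exceeded its highest WT array. Of 58 listed genes, 29 were undetected on all 6 chow arrays.

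**Figure D3:**
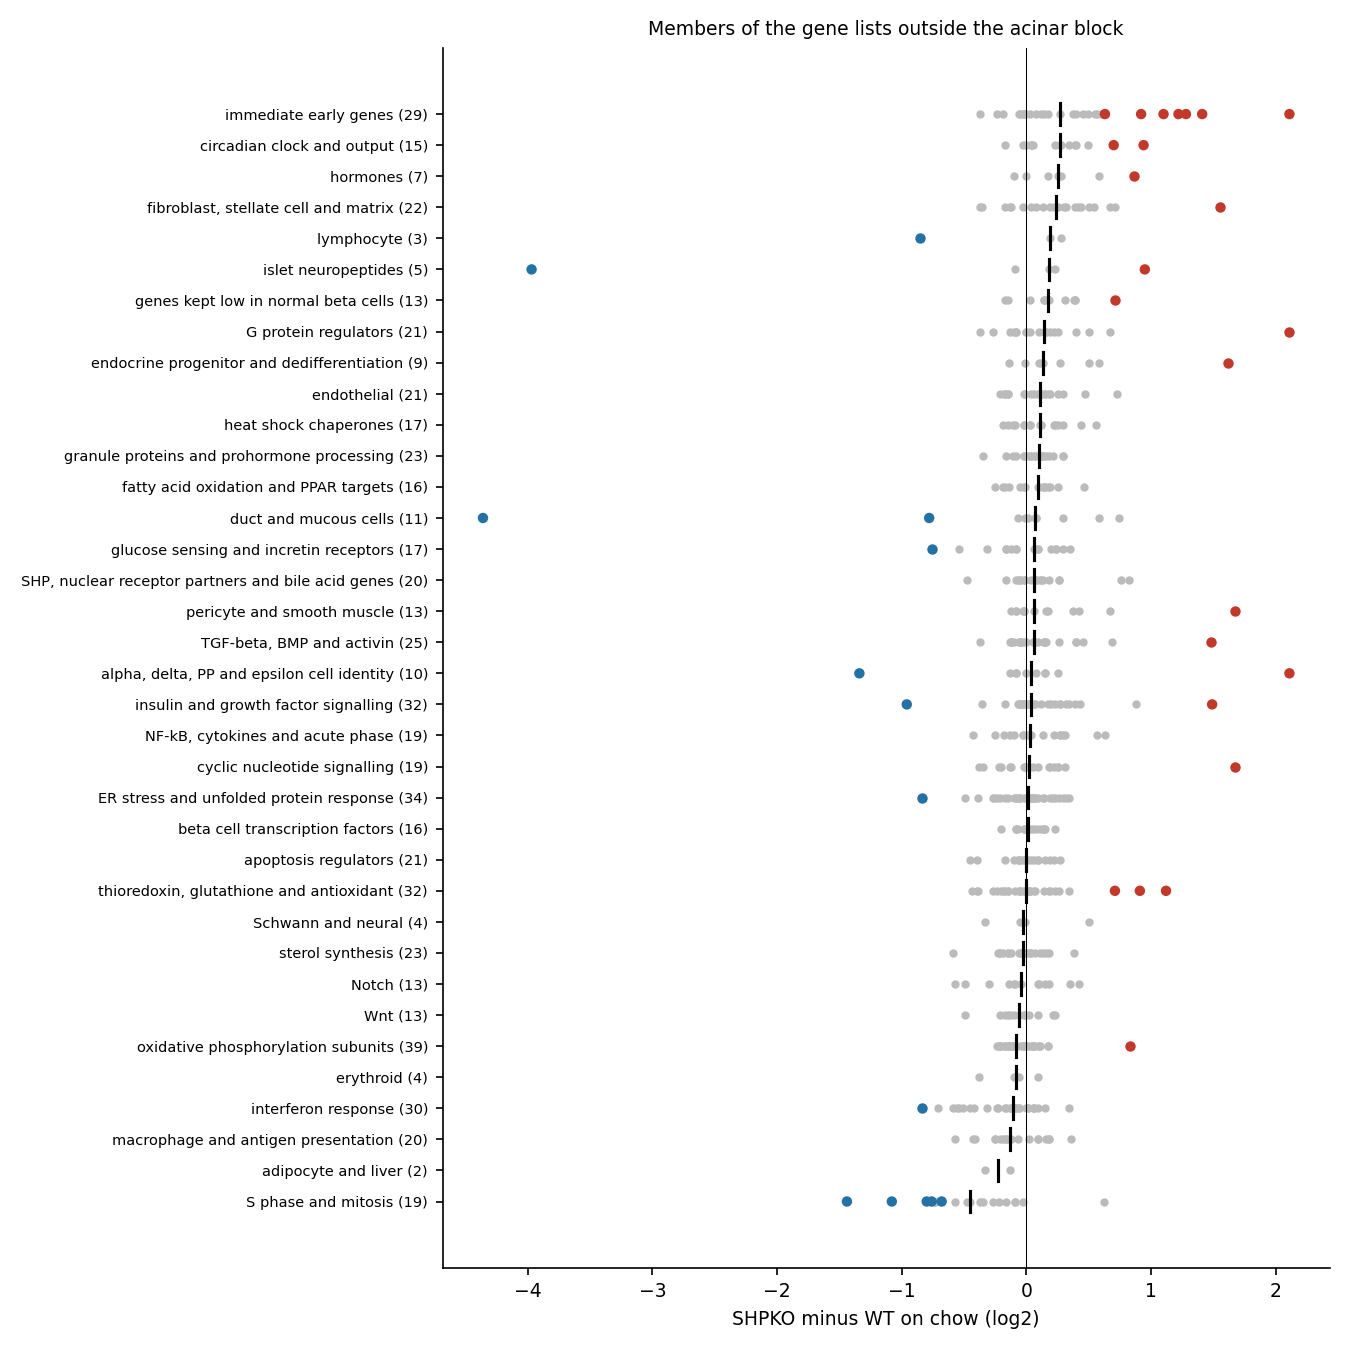
Difference between SHPKO and WT on chow (log2, x axis) for the tested members of each gene list outside the acinar block, with the number tested in parentheses. Red and blue points were called higher and lower, grey points were not called and black bars are list medians. Medians run from -0.45 for S phase and mitosis to 0.27 for the immediate early and clock lists.

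Some rises rested partly on WT replicate 3, the chow array with the fewest detected probes (13821). It was the lowest WT array for 36 of the 79 genes called higher outside the block, against 24 for replicate 1 and 19 for replicate 2. Over all genes it was the lowest for 39.5%. Among the 67 genes called lower outside the block, WT replicate 3 was the highest WT array for 31. SHPKO replicate 3 was the lowest SHPKO array for 38 of these 67. Shares over all genes were not taken for these 2 counts. Cap1, an actin-binding protein, read 9.86, 9.82 and 9.78 in SHPKO, against 8.80, 8.62 and 7.13 in WT (1.64 ± 0.38, adjusted p = 0.036), and without WT replicate 3 the difference was 1.11 (adjusted p = 0.066). Chka, a choline kinase, rose by 1.16 ± 0.28 (adjusted p = 0.045), and stood at 0.86 without that array (adjusted p = 0.15). Kcnq1ot1, a long noncoding RNA of an imprinted cluster, read 7.37, 7.15 and 7.37 in SHPKO, against 6.34, 6.44 and 5.42 in WT (1.23 ± 0.24, adjusted p = 0.012). Nktr, a cyclophilin-related protein, rose by 1.20 ± 0.25 (adjusted p = 0.02), and like Kcnq1ot1 was still called without WT replicate 3, at 0.87, while Kcnq1ot1 stood at 0.91. The calls of Nktr, Cap1 and Chka were lost without SHPKO replicate 1 or 2, those of Cap1 and Chka also without SHPKO replicate 3 or WT replicate 3, that of Chka also without WT replicate 2, and that of Kcnq1ot1 without SHPKO replicate 1. For Cap1, Chka and Nktr, replicate 3 was the lowest array in every group of the series, so this pattern was not particular to the WT chow array. The part of signal quality in these values was not tested.

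Called genes were frequent beside Nr0b2 itself on chromosome 4. Among the 99 tested genes within 50 genes on either side of it in the RefSeq gene order, and outside the acinar block, 17 were called (17.2%), 6 higher and 11 lower. Of the 8423 other tested genes outside the block, 129 were called (1.53%). Within 25 genes on either side the share was 18%, and within 100 genes 9.64%. The next tested gene to Nr0b2 is Gpn2, a GTPase of RNA polymerase assembly, and it had one of the clearest falls. Gpn2 read 6.96, 7.16 and 6.94 in SHPKO, against 8.96, 8.61 and 8.70 in WT (-1.74 ± 0.10, adjusted p = 1.4e-07). Bsdc1 read 7.13, 7.25 and 7.12 in SHPKO, against 8.60, 8.39 and 8.64 in WT (-1.38 ± 0.11, adjusted p = 2.4e-06). Trim62, a ubiquitin ligase, was undetected in SHPKO and at least 2-fold lower (adjusted p = 3.1e-06). Tcea3, a transcription elongation factor, fell by 1.07 (adjusted p = 7e-06), with 5.84, 5.84 and 5.77 in SHPKO, against 6.74, 6.93 and 6.99 in WT. Col16a1 and Cd52, described above, lie in the same interval, and Pdpn lies on the same chromosome. Of the 17, 10 were also called in the same direction on western diet. Each of the 17 rests on 1 kept probe. The loss of SHP and the chromosomal interval around the mutant allele cannot be told apart in this design. Without this interval, 129 of the 146 calls remained.

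**Figure D4:**
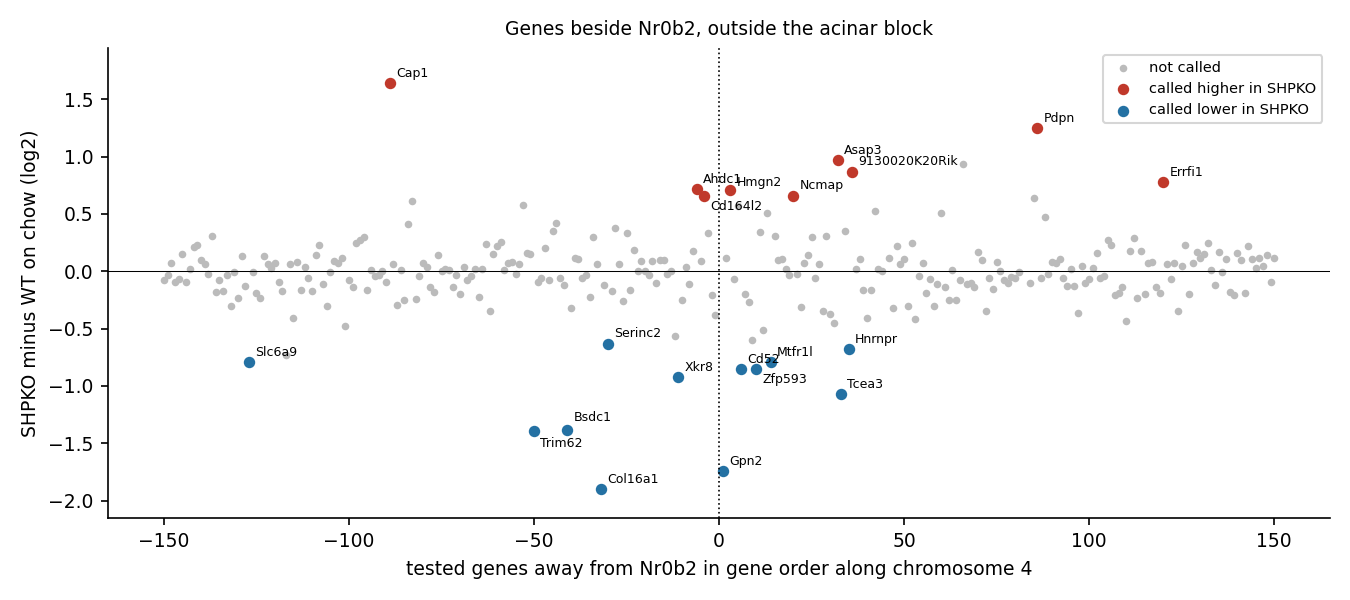
Difference between SHPKO and WT on chow (log2, y axis) for tested genes outside the acinar block, by position in gene order relative to Nr0b2 on chromosome 4 (x axis, number of tested genes; the dotted line is Nr0b2). Red and blue points were called higher and lower. Called genes crowd within 50 genes of Nr0b2, where 17 of 99 were called.

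The genotype difference on western diet used the other 6 arrays and so shares no array with the chow comparison. It also gave 187 called genes among those tested (2.18%), of which 90 were higher (1.05%) and 97 lower (1.13%). Of the 79 genes higher on chow outside the block, 54 had the same sign on western diet and 6 were called higher there. Of the 67 lower, 48 had the same sign and 26 were called lower. The difference between the 2 genotype differences (the interaction, western diet minus chow) passed an adjusted p of 0.05 for 42 of the 146 genes (28.8%), against 1.34% of all genes. That share is raised by the choice of genes, since they were called on chow. On the fitted scale, Dcn differed by 1.68 on western diet and Pdpn by 1.01, and Tff2, Hamp2, Gamt, Cldn10 and Cabp2 by -3.59, -3.30, -1.27, -1.49 and -1.53, and the interaction of each of these 7 genes had an adjusted p of 0.20 or above. Of the 7 called immediate early genes, 5 passed the interaction test, and Npas4 (adjusted p = 0.052) and Ccn2 (0.20) did not. Fos stood at 9.50 ± 0.14 in SHPKO and 9.64 ± 0.07 in WT on western diet, and its interaction was -1.55 ± 0.17 (adjusted p = 0.00041). Egr1 stood at 11.41 ± 0.15 in SHPKO and 11.31 ± 0.10 in WT (interaction -1.19, adjusted p = 0.0012). For both genes the WT chow arrays were the low group among the 4, and the other groups lay close together. Pde5a had the same arrangement, at 8.03 ± 0.11 in SHPKO and 8.01 ± 0.32 in WT on western diet (interaction -1.65, adjusted p = 0.0025). Rgs2 kept part of its difference, at 0.75 ± 0.14 (adjusted p = 0.0079), with an interaction of -1.36. Gal was again undetected in SHPKO on western diet, where WT stood at 5.82 ± 0.09 and the fitted difference was -1.04, and the fitted interaction was 2.93 (adjusted p = 3.9e-07). Vip was lower in SHPKO on western diet, with a western diet difference of -1.57 ± 0.13 (adjusted p = 7.2e-06) and an interaction of -2.52. All 5 called cell cycle genes passed the interaction test, with a list median of 0.17 on western diet, and Cenpa was called higher there at 0.82 (interaction 1.58, adjusted p = 0.00032). The plot of chow against western diet differences shows both sets.

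**Figure D5:**
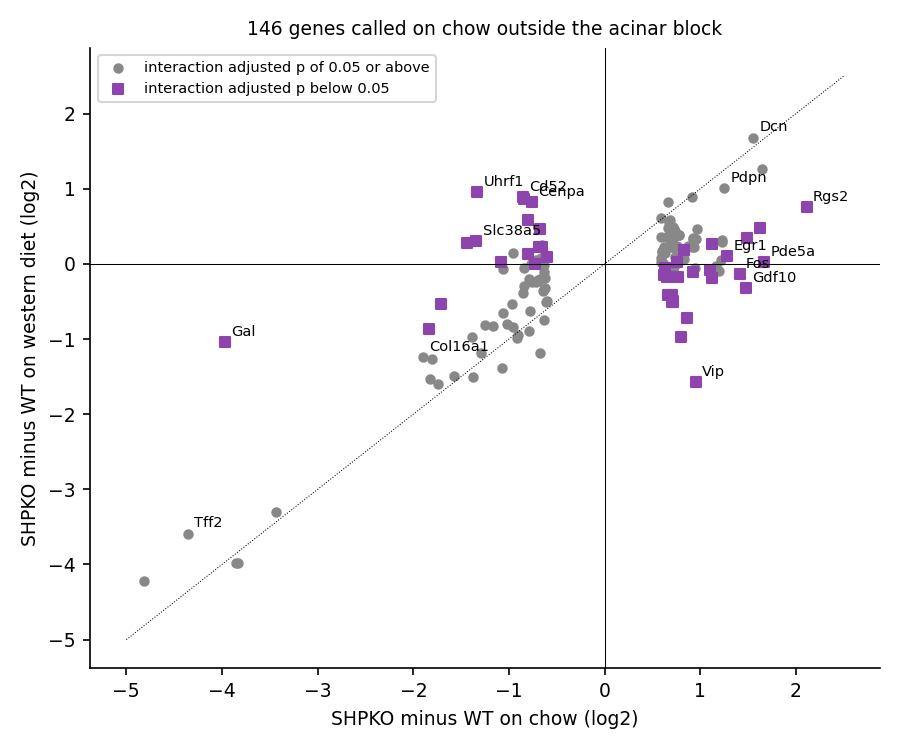
Difference between SHPKO and WT on chow (x axis, log2) against that on western diet (y axis, log2) for the 146 genes called on chow outside the acinar block. Squares mark an interaction adjusted p below 0.05 and the dotted line equal differences. Tff2 and Dcn lie near the line, Fos, Egr1 and Pde5a near 0 on western diet, and Vip, Uhrf1, Cenpa and Cd52 on the opposite side of 0.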

How the data were processed

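The deposited raw table holds a linear intensity per probe and array, not normalized between arrays, which the authors exported with BeadStudio, per the submitters' processing notes (its version is not stated). Beside each value stands a deposited detection p-value against the array's negative controls. A second deposited table of background-subtracted, quantile-normalized intensities served as an alternative. Slide and genome build are not given in the sources used here. Of 45281 probes, 34885 carried 1 gene name, 18 several and 10378 none.

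Raw intensities were background-corrected and quantile-normalized with neqc (offset 16) in limma 3.58.1 (R 4.3.3) and taken to log2. The brightest kept probe stood for a gene. A model with 4 group means was fitted to all 12 arrays in limma with moderated variances, with Benjamini-Hochberg adjustment over 8564 genes. Genes undetected in a group are given as "at least N-fold", against the higher of their own signal and the lowest detected signal of each array (5.07 to 5.48). The number of arrays limits precision.

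Named genes were Nr0b2 and the hormones, the 25 largest rises and 25 largest falls outside the block, and the 8 largest block changes. The leading members of those of the 40 lists that lie outside the block were also named, as were block genes called higher or not called. The rises and falls were called genes without overlap between groups, and Gm, Rik and similar symbols were passed over. Values are given for part of the named genes. Further list members, cell type markers and block genes outside this rule were named after their values were seen. Members and lists were chosen with earlier results of these data known. Lists were described by counts and medians and not tested. Deviations of SHPKO and WT arrays with the same replicate number correlated at 0.08, 0.07 and 0.15. Those with different numbers correlated at -0.14 to 0.12. Replicate 3 of either genotype correlated negatively with replicates 1 and 2 of the other. For some called genes, among them Chka and Nktr, replicate 3 was the lowest array in every group. For others, such as Fos, it was not. The main fit did not pair arrays by replicate number, and what arrays of the same number share was not tested. On simulated data of this comparison over 8564 genes, 24 of 50 true 1.5-fold changes and 49 of 50 true 2-fold changes were called, with 2 false calls. Promoters and gene order came from RefSeq (GRCm38.p6), matched by symbol.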

Additional observations from a re-analysis of the deposited data

Results flagged for a closer look

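The genotype difference was not the same on both diets for 42 of the genes called on chow outside the block, of which those named by the rule are given here, by the interaction contrast of limma (SHPKO minus WT on western diet minus that on chow, log2, adjusted p below 0.05). Values involving an undetected group are fitted values. Among signalling and immediate early genes the interaction was -1.55 for Fos, -1.19 for Egr1, -1.04 for Junb, -1.18 for Gadd45b, -1.36 for Rgs2, -1.65 for Pde5a, -1.15 for Trib1 and -1.80 for Gdf10. In each of these the difference was larger on chow. Among peptides and endocrine genes it was 2.93 for Gal, -2.52 for Vip, -1.58 for Ghrl, 1.64 for Slc38a5 and -1.14 for Sox4. Cell cycle genes gave 1.37 for Aurka, 1.11 for Cdca3, 1.58 for Cenpa, 1.14 for Mcm5, 1.72 for Pbk and 2.28 for Uhrf1, all lower in SHPKO on chow. Further genes named by the rule outside the block were Atp5b at -0.66, Cars, a cysteinyl-tRNA synthetase, at -1.31, Ciart at -1.21, Txnip at -0.86, Cd52 at 1.74, Ctsk at 0.96 and Olfr1490, an olfactory receptor gene, at 1.18. Within the acinar block, 1810009J06Rik stood at -3.28, being 4.81 ± 0.04 in SHPKO and 4.40 ± 0.05 in WT on western diet. Prss3 stood at 2.05 and Reg1, a secreted lectin, at -1.38.

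Probes without a single gene name, which entered no gene count, also differed on chow. Of 1877 such probes kept, 94 were called higher in SHPKO and 20 lower, whereas of 12337 named probes 134 were higher and 130 lower.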

How the results depend on the processing

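Of the 146 genes called outside the acinar block, 38 were called in every setting that tested them, 19 higher and 19 lower, among them Rgs2, Fos, Egr1, Junb, Pde5a, Sox4, Txnip, Dcn, Gal, Tff2, Slc38a5, Ctsk, Pbk and Gpn2. Without background correction 96 genes were called, 36 higher and 60 lower, and outside the block 55 (35 higher, 20 lower), which is the setting that ended most calls of dim genes. Leaving out each chow array in turn gave 53 to 103 higher genes and 52 to 102 outside the block, the lowest without SHPKO replicate 1. The share of calls that were higher was 42.8% and ran from 34.2% to 50.9% over the settings. Some differences, most of them near 0, changed sign: Bhlha15 was -0.01 with median centring and -0.02 with the mean of its probes, Ins2 was -0.19 with median centring and -0.05 with acinar probes left out before normalization, Sst was -0.04 with median centring, and Ncoa2 was -0.22 with a looser filter or none. Median centring gave -0.08 for Atp5c1, -0.16 for Atp5o and -0.07 for Clock, and leaving out acinar probes gave -0.04 for Atp5o and -0.01 for Clock. With probes averaged, Atp5a1 was 0.23, Atp5o -0.20, Crem 0.17, Pecam1 0.15 and Sparc -0.01, and without background correction Pecam1 was 0.00. Without single arrays Bhlha15 ran from -0.01 to 0.13, Gcg from -0.16 to 0.03, Ins2 from -0.04 to 0.06, Arntl from -0.12 to 0.02, Atp5a1 from -0.33 to 0.13, Atp5c1 from -0.08 to 0.18, Atp5o from -0.02 to 0.04, Ccnd3 from -0.09 to 0.01, Clock from -0.04 to 0.06, Crem from -0.13 to 0.05, Hnf4a from -0.14 to 0.01, Krt7 from -0.03 to 0.20, Pdx1 from -0.15 to 0.06 and Pecam1 from -0.23 to 0.18. The cause was not tested. With the replicate number as a block, 232 genes were called (118 higher, 114 lower), against 187 in the main fit (80 higher, 107 lower). The labels give the replicate only as a number, and the cause of the added calls was not tested. Signals near background limit dim genes, and compression limits the brightest.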
